A study of Mus musculus with 2 samples.

Results

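A set of 9 genes of the canonical Wnt pathway (Foxq1, Nkd1, Axin2, Lef1, Apcdd1, Fzd4, Fzd6, Fzd10 and Ctnnb1) was followed in endothelial cells sorted from mouse embryos, out of the 27998 genes in the deposited count matrix. They were taken by symbol, and Foxq1, Nkd1 and Fzd10 were on the list because their RNA had already been seen to mark groups of control endothelial cells. Levels and detection of the 9 genes in the 2 genotypes were the values behind the choice, so all that follows describes them and tests nothing. Counts were summed over cells with at least 1 unique molecular identifier (UMI) of Cdh5 or Pecam1, the genes of VE-cadherin and CD31. These gated cells were 6089 of 6675 control cells (91.2%) and 2769 of 3242 mutant cells (85.4%). UMIs of all 9 genes were found in both libraries.

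Wnt ligands bind Frizzled receptors together with the coreceptors Lrp5 and Lrp6, which stops the destruction complex from breaking down beta-catenin, the protein of Ctnnb1. Beta-catenin then enters the nucleus and turns on target genes through DNA-binding partners of the TCF/LEF family, among them genes of inhibitors that feed back on the pathway. In blood vessels the pathway is best known for vessel growth into the brain and for the blood-brain barrier, and beta-catenin also ties VE-cadherin to the cytoskeleton at endothelial junctions.

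The mice were C57BL/6J. The control library came from embryos with the genotypes Mekk3 fl/fl and Mekk3 fl/+ at embryonic day 9.5. The mutant library came from Mekk3 fl/-; Tie2Cre+ embryos, whose sample title gives day 9.5 and whose stage label gives day 9.7. Mekk3 is the kinase encoded by Map3k3. Tie2Cre is a recombinase active in endothelial and blood cells, and besides its floxed allele every mutant cell carries an allele labelled as null. The genotype label of the control names no Cre. Tissue was the umbilical and vitelline arteries together with the dorsal aorta, and the sort kept ESAM+, CD144+ and CD31+ cells that were Ter119- and low or negative for CD41. How many embryos were pooled is not given in the sources used here. With 1 library per genotype no test was possible, so no difference has a replicate check, and every interval below is an exact 95% interval of counting error only.

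Gated cells held 57754628 UMIs in the control (median 8034 per cell) and 19699356 in the mutant (median 6188). A count of 0 allowed up to 0.0519 and 0.152 CPM, where CPM is UMIs of a gene per 1000000 UMIs of the summed cells. The libraries shared 5 cell barcodes. Endothelial markers were high in both, with Egfl7 at 936 and 902 CPM and Kdr at 333 and 349 CPM, while Cdh5, which the gate itself uses, stood at 414 and 312 CPM. Of the gated cells, 167 control and 21 mutant cells lay in clusters named as another cell type. A Y-linked UMI was seen in 1597 control and 0 mutant gated cells. Map3k3 stood at 9.26 and 11.02 CPM, but tags at the end of the transcript need not lie in the deleted exons and check nothing.

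Of the 9 genes, 2 were lower in the mutant, 0 were higher and 7 were neither. A gene was called where its level differed by at least 1.5-fold with an interval that left out 1, and Axin2 and Nkd1, a pair of feedback inhibitors, met this. Among all 13125 genes with at least 20 UMIs, 20.4% were called lower and 14.8% higher, so 2 of 9 is near the background and no result about these genes. Their median log2 ratio of mutant over control was -0.46, against -0.11 for all measured genes. Cdh5, which the gate uses, had a ratio of 0.753, in the middle of the range of the genes described here.

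**Figure D1:**
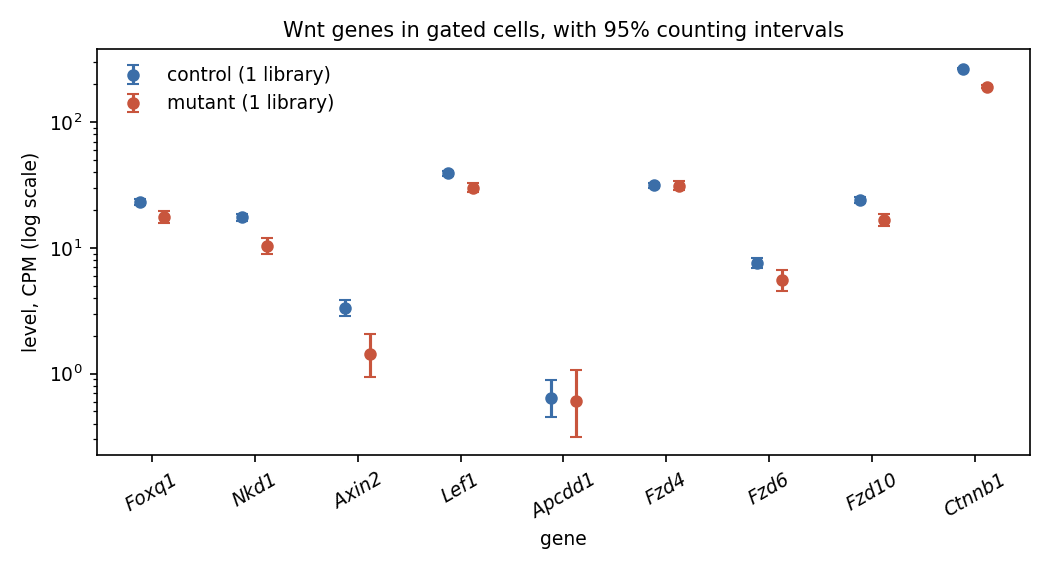
Level of each Wnt gene in gated cells, in CPM on a log scale, for the control library (blue) and the mutant library (red); points are 1 library each and bars are exact 95% Poisson intervals. Axin2 goes from 3.34 to 1.42 CPM and Nkd1 from 17.6 to 10.4 CPM, while the Fzd4 points lie at the same height.

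Among the receptors, Fzd10 and Fzd6 had ratios below 1 short of the call, and Fzd4 stood at the same level in both libraries. Fzd4, which also binds the vascular ligand Norrin, stood at 31.5 CPM in the control (interval 30.1 to 33.0, 1818 UMIs) and 31.3 CPM in the mutant (28.9 to 33.8, 616 UMIs), a ratio of 0.993 (0.905 to 1.09). Fzd6, a receptor best known for planar cell polarity, stood at 7.62 CPM (440 UMIs) and 5.53 CPM (109 UMIs), a ratio of 0.726 (0.583 to 0.898). Fzd10 stood at 24.1 CPM (1393 UMIs) and 16.6 CPM (327 UMIs), a ratio of 0.688 (0.608 to 0.777), just inside the bound of 1.5-fold. The control and mutant intervals overlapped for Fzd4 but for neither Fzd6 nor Fzd10. The Fzd10 ratio depended on which cells were summed. Its log2 ratio of -0.54 went to -0.77 when cells were thinned to 2500 UMIs each, which met the call. In cells with low cycle scores (at most 3 UMIs of the S-phase and G2/M genes after thinning, 496 control and 576 mutant cells) it was 0.34 (interval -0.22 to 0.91).

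Ctnnb1, whose protein is set mostly by its breakdown and not by its RNA, stood at 267 CPM in the control (263 to 272) and 192 CPM in the mutant (186 to 199). The ratio was 0.720 (0.694 to 0.746), with intervals far apart but a fold short of the call. None of its 6 listed partners at cadherin junctions was called, and their ratios ran from 0.694 to 1.27. Cdh5 is given above, the catenin genes Ctnnd1 and Ctnna1 had ratios of 0.723 and 0.787, and Ptprb, a phosphatase bound to VE-cadherin, had 0.694. Cdh2, the N-cadherin gene, had 0.945 (0.897 to 0.996), and Vcl, the gene of vinculin, lay on the other side at 1.27 (1.19 to 1.36). Lef1, the only DNA-binding partner of beta-catenin among the 9, stood at 39.2 CPM (37.6 to 40.8) and 30.1 CPM (27.7 to 32.6), a ratio of 0.769 (0.701 to 0.842).

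Axin2 and Nkd1 were the 2 genes called lower. Axin2 encodes a scaffold of the destruction complex and is the most widely used readout of canonical signaling. It stood at 3.34 CPM in the control (2.89 to 3.85, 193 UMIs) and 1.42 CPM in the mutant (0.945 to 2.05, 28 UMIs), a ratio of 0.425 (0.275 to 0.634), and in the mutant no cell held more than 1 UMI of it. Nkd1, whose protein binds Dishevelled and dampens the signal, stood at 17.6 CPM (16.5 to 18.7, 1015 UMIs) and 10.4 CPM (9.03 to 11.9, 205 UMIs), a ratio of 0.592 (0.507 to 0.689). Foxq1, a forkhead transcription factor found in brain endothelium, stood at 23.1 CPM (21.9 to 24.4) and 17.6 CPM (15.8 to 19.5), a ratio of 0.759 (0.673 to 0.855). Apcdd1, a membrane inhibitor of Wnt ligands, had 37 control and 12 mutant UMIs, never more than 1 in a cell, too few to show a difference at this depth (ratio 0.951, 0.451 to 1.86). Nkd1 and Axin2 met the call in every other choice of cells and scaling that was tried, apart from the vessel-marker groups below. There Axin2 missed it in cells with arterial markers only and in cells with neither set of markers.

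In the annotation, on the plus strand of GRCm38, Foxq1 lies on chromosome 13 from 31556134 to 31560976 and Fzd10 on chromosome 5 from 128600844 to 128604093, each as a single exon. Nkd1 lies on chromosome 8 from 88521354 to 88594884, Axin2 on chromosome 11 from 108920349 to 108950783 and Lef1 on chromosome 3 from 131110471 to 131224356. Fzd4 lies on chromosome 7 from 89404355 to 89413134, Fzd6 on chromosome 15 from 39006034 to 39038188 and Ctnnb1 on chromosome 9 from 120929216 to 120960507. Foxq1, Nkd1, Axin2, Lef1, Fzd6 and Ctnnb1 are overlapped by other annotated genes, and whether the counting used strand is not given in the sources used here, so their counts are uncertain to that extent.

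Promoter windows from RefSeq on GRCm38.p6, 250 bases before to 50 after a transcript start, were at hand for 6 of the 9 genes, 10 windows in all. Forms of the site that TCF/LEF proteins bind were looked for on both strands. The form CTTTGAA was in 5.14% of all 32851 windows of this length. The form CTTTGAT was in 3.73% of them. The form CTTTGTA was in 3.63% of them, and the form CTTTGTT in 5.85%. At least 1 of these forms was in 16.9% of all windows and in 1 of these 10. The windows of Axin2 and Nkd1 are shown because these were the 2 genes called lower, and that of Lef1 because it is the window with a match, CTTTGTA on the reverse strand at position 104 from the 5′ end, in capitals. All 3 are on the plus strand, at chr11:108920099-108920398 for Axin2, chr8:88527383-88527682 for Nkd1 and chr3:131156044-131156343 for Lef1, where the Nkd1 and Lef1 windows belong to starts inside the annotated genes.
Axin2: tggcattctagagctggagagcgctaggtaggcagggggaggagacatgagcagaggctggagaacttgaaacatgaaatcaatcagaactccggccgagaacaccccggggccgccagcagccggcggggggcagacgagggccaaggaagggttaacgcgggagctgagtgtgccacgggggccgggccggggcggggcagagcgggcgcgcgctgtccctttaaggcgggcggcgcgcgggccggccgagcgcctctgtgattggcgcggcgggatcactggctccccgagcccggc
Nkd1: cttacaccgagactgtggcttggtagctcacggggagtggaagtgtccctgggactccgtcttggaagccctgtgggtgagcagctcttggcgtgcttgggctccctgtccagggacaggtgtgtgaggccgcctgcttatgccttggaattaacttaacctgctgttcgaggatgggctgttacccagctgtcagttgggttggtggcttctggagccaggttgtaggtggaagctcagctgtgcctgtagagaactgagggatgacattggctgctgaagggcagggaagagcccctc
Lef1: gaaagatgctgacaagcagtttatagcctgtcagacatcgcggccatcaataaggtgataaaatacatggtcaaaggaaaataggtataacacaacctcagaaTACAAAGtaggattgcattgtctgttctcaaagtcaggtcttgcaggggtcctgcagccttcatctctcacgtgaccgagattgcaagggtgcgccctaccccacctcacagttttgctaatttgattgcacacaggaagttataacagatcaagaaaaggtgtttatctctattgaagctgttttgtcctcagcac
The Axin2 window was rich in G and C (70.0%) beside the median window (52.7%), the Nkd1 window had 58.3% and the Lef1 window 43.7%. The search covers these letters in these windows and nothing farther away.

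Across the control endothelium the 9 genes were far from even. Cells of both libraries were clustered on variable genes with the 9 genes and the Wnt lists left out, and 10 clusters with at least 50 gated control cells were endothelial-like or unnamed. Cluster 13, led by Apod, Htra3, Igfbp7 and Spock2 (232 gated control cells), and cluster 3, led by Gxylt2, Tdrp and Car2 (1045 cells), also had Foxq1 among their 10 leading genes. Both were high in Vwa1, a matrix gene of brain vessels (250 and 93.7 CPM). Vwa1 was not particular to them, at 131 CPM in control cluster 5, 71.9 CPM in control cluster 7 and 97.8 CPM in mutant cluster 6. Together clusters 13 and 3 were 21.0% of the gated control cells, with 23.6% of the UMIs of all genes, and held 76.0% of the Foxq1 UMIs (73.7 to 78.3). They held 68.0% of the Nkd1 UMIs (65.0 to 70.8), 53.4% of the Axin2 UMIs, 48.8% of the Lef1 UMIs and 42.8% of the Fzd10 UMIs. For Fzd4 the share was 16.6% and for Ctnnb1 20.6%, under the share of all UMIs.

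**Figure D2:**
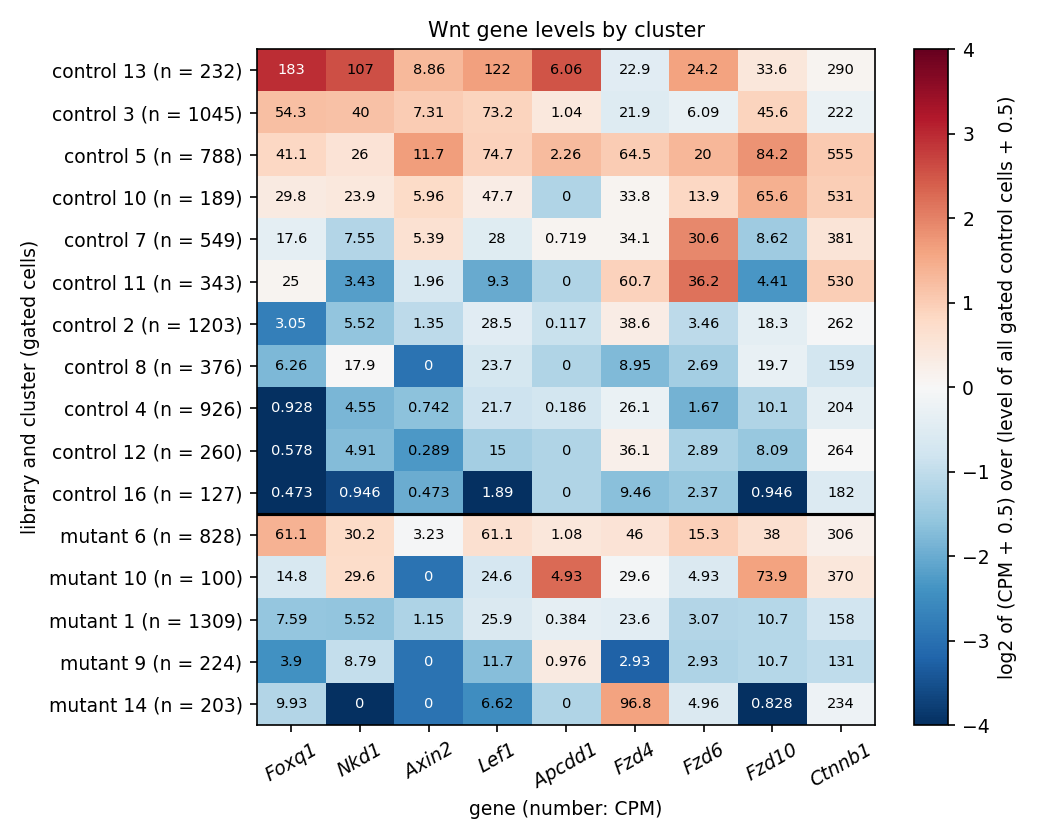
Level of each Wnt gene (columns) in each cluster of gated cells (rows, library and cluster number with cells), printed in CPM and coloured by log2 of CPM + 0.5 over the level of all gated control cells + 0.5; the black line parts the control clusters from the mutant ones. Foxq1 runs from 183 CPM in control cluster 13 to 0.578 in control cluster 12, and mutant cluster 6 is the mutant row with 61.1 CPM of Foxq1.

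Foxq1 fell into a steep order over the control clusters. Its level was 183 CPM in cluster 13 (165 to 202), 54.3 CPM in cluster 3 (50.1 to 58.7) and 41.1 CPM in cluster 5 (33.8 to 49.6), with no overlap between these neighbours. Clusters 10, 11 and 7 followed at 29.8, 24.97 and 17.6 CPM, where neighbours overlapped, and cluster 8 stood at 6.26 CPM. The lowest levels were in cluster 2, with the venous factor Nr2f2 among its leading genes (3.05 CPM), cluster 4 (0.928 CPM) and cluster 12, led by the lymphatic genes Prox1 and Lyve1 (0.578 CPM, 2 UMIs). The intervals of all 3 overlapped that of hematopoietic-like cluster 16 (0.473 CPM, 1 UMI, 0.0120 to 2.63). Clusters 2, 4 and 12 made up 39.2% of the gated control cells, with 54.2% of the UMIs of all genes, and held 4.79% of the Foxq1 UMIs.

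Nkd1, Lef1 and Apcdd1 were also highest in control cluster 13. Nkd1 stood there at 107 CPM (93.8 to 122), in cluster 3 at 40.01 CPM and in cluster 5 at 26.0 CPM. From cluster 5 to clusters 10 and 8 neighbouring intervals overlapped, and the lowest value was 3.43 CPM in cluster 11. Lef1 stood at 122 CPM in cluster 13 (108 to 138), at 74.7 and 73.2 CPM in clusters 5 and 3, which overlapped, and at 9.30 CPM in cluster 11. Axin2 was at 11.7 CPM in cluster 5 (7.95 to 16.6), 8.86 CPM in cluster 13 (5.33 to 13.8) and 7.31 CPM in cluster 3 (5.83 to 9.05), an order in which neighbours overlapped. Of the 37 control UMIs of Apcdd1, 13 were in cluster 13 (6.06 CPM, 3.23 to 10.4) and 12 in cluster 3.

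The 3 Frizzled genes each had another order over these clusters. Fzd6 was highest in the arterial clusters, at 36.2 CPM in cluster 11 (28.4 to 45.5, led by Gja5 with Nkx2-3) and 30.6 CPM in cluster 7 (24.4 to 37.8, led by Gja4 and Gja5), which overlapped. It stood at 24.2 CPM in cluster 13 (18.1 to 31.8), which overlapped both arterial clusters, and at 1.67 CPM in cluster 4. In the clustering that kept the Wnt genes, a control cluster with Foxq1 among its leading genes had 32.3 CPM of Fzd6 (25.4 to 40.4). Fzd10 stood at its lowest level in the same arterial cluster 11, at 4.41 CPM (2.02 to 8.37), and at 8.62 CPM in cluster 7. It was highest in clusters 5 and 10, at 84.2 CPM (73.5 to 96.0) and 65.6 CPM (45.2 to 92.1), which overlapped, and stood at 45.6 CPM in cluster 3 and 33.6 CPM in cluster 13. Fzd4 was at 64.5 CPM in cluster 5 and 60.7 CPM in cluster 11, which overlapped, and only at 22.9 and 21.9 CPM in clusters 13 and 3. Ctnnb1 was highest in clusters 5, 10 and 11, at 555, 531 and 530 CPM, and lowest in cluster 8, at 159 CPM.

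Clusters 5 and 10, which stand high for Fzd10, Fzd4 and Ctnnb1, were of shallow cells, with gated control medians of 2627 and 2285 UMIs against 9983 in cluster 3, and stayed unnamed for that reason. Cluster 5 also had the highest level of endothelial markers after cluster 11, at 7307 CPM summed over the 10 markers against 4501 CPM in cluster 3, and Aplnr stood there at 421 CPM against 127 CPM. The part of depth in these levels was not tested. Without clusters 5 and 10, Axin2 and Nkd1 were again the genes called lower.

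In the mutant, nearly all cells lay in clusters of their own, so levels by cluster set different cells side by side and may be those of the library. Mutant cluster 6, led by Sox9 and Esm1, had 828 gated cells, 29.9% of them, with 18.85% of the UMIs of all genes. It held 65.6% of the mutant Foxq1 UMIs (60.3 to 70.6), 54.6% of the Nkd1 UMIs, 43.1% of the Fzd10 UMIs and 12 of the 28 Axin2 UMIs. Foxq1 stood there at 61.1 CPM (53.4 to 69.6), Nkd1 at 30.2 CPM (24.8 to 36.3), Lef1 at 61.1 CPM and Axin2 at 3.23 CPM (1.67 to 5.64). Control clusters 3 and 13, summed, stood at 74.5 CPM of Foxq1 (69.97 to 79.2), 50.6 CPM of Nkd1 (46.9 to 54.5), 80.9 CPM of Lef1 (76.2 to 85.8) and 7.55 CPM of Axin2 (6.16 to 9.16). All 4 intervals of mutant cluster 6 lay below these sums without overlap, but the order depends on which control clusters are set beside it. Against control cluster 3 alone, Foxq1 was higher in mutant cluster 6 (61.1 against 54.3 CPM) with overlap, and the Lef1 intervals overlapped too. Clusters 3, 5 and 13 summed stood at 69.1 CPM of Foxq1 (65.1 to 73.2), which also overlapped. Cluster 1, led by Ndufa4l2 and the largest of the mutant (1309 gated cells), had 7.59 CPM of Foxq1 and 5.52 CPM of Nkd1. Unnamed cluster 14, with endothelial markers but led by Ankrd1 and the smooth muscle genes Tagln and Acta2 (203 cells), had 0 UMIs of Nkd1 and Axin2, which allows 2.48 CPM, 1 UMI of Fzd10 and 96.8 CPM of Fzd4 (80.1 to 116), above every other cluster shown.

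**Figure D3:**
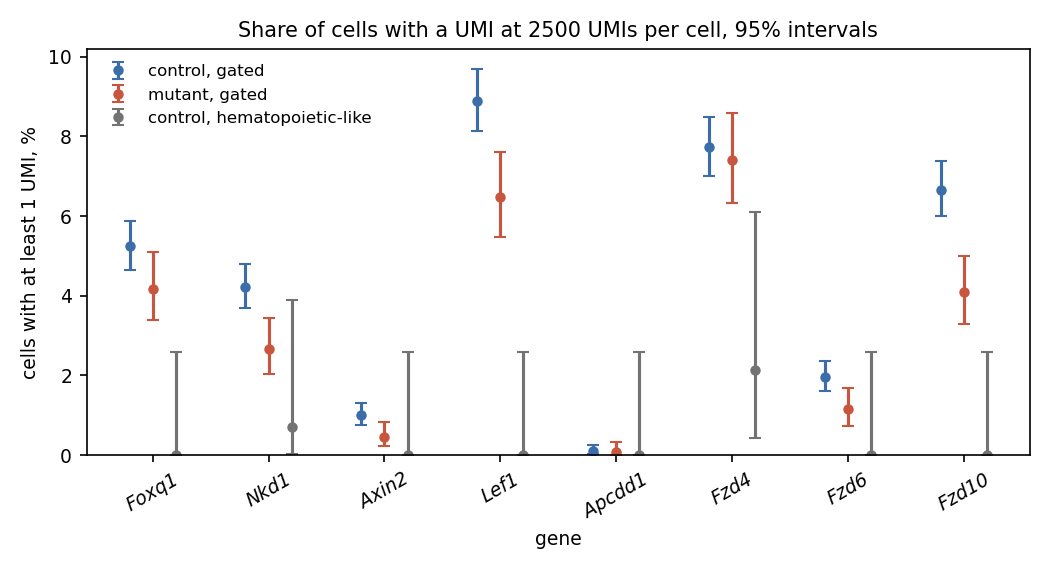
Share of cells with at least 1 UMI of each gene after thinning each cell to 2500 UMIs, with exact 95% Clopper-Pearson intervals, in gated control cells, gated mutant cells and control hematopoietic-like cells; Ctnnb1, at 49.5% and 36.2% of gated cells, is off this scale and not drawn. Lef1 is seen in 8.89% of control and 6.48% of mutant cells, and in 0 of 141 hematopoietic-like cells.

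To set detection side by side at the same depth, each cell was thinned to 2500 UMIs, which 5207 control and 2177 mutant gated cells reached while 882 and 592 were left out. Foxq1 was then seen in 5.24% of control cells (4.65 to 5.88) and 4.18% of mutant cells (3.38 to 5.11), intervals that overlapped, against 12.6% and 9.25% unthinned. Nkd1 was seen in 4.23% (3.70 to 4.81) and 2.66% (2.03 to 3.43), against 11.4% and 5.16% unthinned. Fzd10 was seen in 6.66% (6.002 to 7.38) and 4.09% (3.30 to 5.01), against 17.3% and 10.1% unthinned. Intervals did not overlap for Nkd1 and Fzd10, nor for Lef1 and Ctnnb1, and did for Fzd4, at 7.72% and 7.40%. Axin2 was seen in 0.999% (0.747 to 1.31) and 0.459% (0.2205 to 0.843) of cells. Fzd6 was seen in 1.96% (1.60 to 2.37) and 1.15% (0.745 to 1.69). For both of these genes the intervals overlapped.

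Hematopoietic-like cells were the first measure of background from free RNA. In 141 thinned control cells of cluster 16, whose own median was 16327 UMIs before thinning against 9365 in the gated cells, 0 had a UMI of Foxq1, Axin2, Lef1, Apcdd1, Fzd6 or Fzd10, which allows a share of up to 2.13%. Nkd1 was seen in 0.709% (0.0180 to 3.89) and Fzd4 in 2.13% (0.441 to 6.09) of them. The gated shares of Foxq1, Lef1 and Fzd10 lay above what 0 allows. Those of Axin2, Apcdd1 and Fzd6 lay below it, and the intervals of Nkd1 overlapped in both genotypes, so on this measure these 4 genes could not be told from background. By level, Axin2 and Fzd6 in gated control cells (3.34 and 7.62 CPM) stood above cluster 16 (0.473 CPM, 0.0120 to 2.63, and 2.37 CPM, 0.768 to 5.52). In gated mutant cells Axin2 (1.42 CPM) and Fzd6 (5.53 CPM, 4.54 to 6.68) overlapped those intervals. The mutant level behind the Axin2 ratio could thus not be told from this background, which for Axin2 is 1 UMI in cells of the control library. Nkd1 in gated cells (17.6 and 10.4 CPM) stood above cluster 16 (0.946 CPM, 0.115 to 3.42) in both genotypes. Ctnnb1 was seen in 32.6% of the hematopoietic-like cells, which use the gene too.

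Other control cells, in clusters named as another cell type or outside the gate, had higher shares of some of these genes at the same 2500 UMIs. Cluster 15, named erythroid-like, also had the neural gene Tubb3 and Crabp1 among its leading genes. In its 78 cells that reached this depth Nkd1 and Axin2 were each seen in 7.69% (2.88 to 15.99). Fzd10 was seen in 5.13% (1.42 to 12.6), and 0 had a UMI of Lef1, Fzd4 or Fzd6. These 78 cells had a median of 8254 UMIs. At resolution 1.5 an erythroid-like cluster had a median of 1290 UMIs and a neural-like cluster, led by Tubb3 and Crabp1, 6641 UMIs. The shares can therefore not be given to erythroid cells. In 75 mesenchyme-like cells Nkd1 and Lef1 were each seen in 6 cells (interval of the share 2.99 to 16.6%) and Foxq1 in 1 cell. In the 384 cells with no UMI of Cdh5 or Pecam1, Nkd1 was seen in 7.29% (4.90 to 10.4), above its gated share of 4.23% with no overlap, and Axin2 in 1.30% (0.424 to 3.01). Foxq1 was seen in 3.65% (2.01 to 6.04) of these ungated cells, Lef1 in 5.99% (3.83 to 8.85) and Fzd10 in 4.43% (upper bound 6.99), all overlapping the gated intervals, and Fzd4 in 0.781% (0.161 to 2.27), below its gated share. Nkd1 and, with overlapping intervals, Axin2 thus had higher shares outside the gate than inside it, and whether those cells express the genes or hold free RNA was not tested.

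The response genes Foxq1, Nkd1, Lef1 and Axin2 were found in the same cells more often than their shares alone give. For pairs among Foxq1, Nkd1 and Lef1 most of that lay between clusters. At 2500 UMIs, 34 control cells held both Foxq1 and Nkd1, where 11.5 would follow from the shares over all gated cells, a quotient of 2.95. Nkd1 was seen in 12.5% of control cells with Foxq1 (8.78 to 16.97) and 3.77% of those without (3.26 to 4.34). With the shares taken within each cluster, 30.2 such cells would follow, a quotient of 1.13. Within cluster 3 alone the quotient was 1.12, from 13 cells. In the mutant, 10 of the 91 cells with Foxq1 (10.99%, 5.40 to 19.3) and 2.30% of those without held Nkd1.

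Pairs with Axin2 kept more of their excess within clusters, on few cells. Foxq1 and Axin2 were together in 10 control cells (4.795 to 18.4), a quotient of 3.67 over all cells and 2.03 within clusters. That interval held the 4.92 cells that would follow within clusters. Nkd1 and Axin2 were together in 9 cells (4.12 to 17.1), at 4.10 and 2.53, where 3.56 would follow within clusters. For Foxq1 and Lef1, in 56 cells, the quotients were 2.31 and 1.25, and for Nkd1 and Lef1, in 40 cells, 2.05 and 1.26. For Fzd10 the quotients were 1.59 and 0.954 with Foxq1, in 29 cells, and 1.501 and 0.989 with Nkd1, in 22 cells. With Lef1, in 53 cells (39.7 to 69.3), they were 1.72 and 1.22, and with Axin2, in 8 cells (3.45 to 15.8), 2.31 and 1.36. The intervals of these counts held the 43.4 and 5.88 cells that would follow within clusters. No excess of Fzd10 within clusters could thus be told from none with any of these genes. The pair of Foxq1 and Fzd10 went to 0.940 over all cells at 1500 UMIs and to 1.93 at 4000. Fzd4 lay on the other side, with 13 cells for Foxq1 (6.92 to 22.2, quotient 0.617) and 9 for Nkd1 (4.12 to 17.08, quotient 0.530). These intervals held the 21.08 and 16.98 cells that would follow over all cells, so a deficit could not be told from none. Without thinning the quotients were 0.904 and 0.948.

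**Figure D4:**
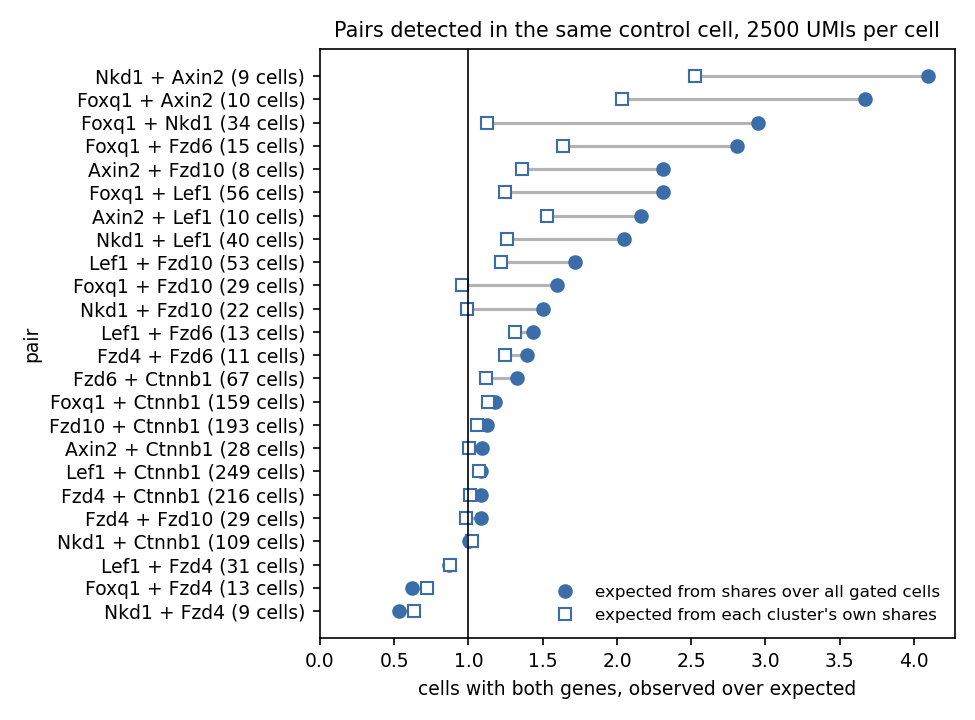
Cells with both genes of a pair, observed over expected, in 5207 gated control cells thinned to 2500 UMIs; filled circles take the expected number from shares over all cells, open squares from shares within each cluster, and the line at 1 is no excess. Foxq1 + Nkd1 moves from 2.95 to 1.13 and Nkd1 + Fzd4 lies at 0.530 and 0.633.

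Counting the 5 response genes Foxq1, Nkd1, Axin2, Lef1 and Apcdd1 together, 83.4% of thinned control cells and 87.5% of mutant cells held none. Exactly 2 were seen in 128 control cells (2.46%, 2.06 to 2.92) and 26 mutant cells (1.19%, 0.782 to 1.75). Of the 3 Frizzled genes, 2 were seen in 47 control cells (0.903%) and 7 mutant cells (0.322%), and 0 cells of either library held all 3.

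Cells with Foxq1 also differed in vessel genes, on lists that were chosen with earlier results of these data known. In thinned control cells the brain vessel and barrier genes summed to 1952 CPM with Foxq1 (1848 to 2059) and 1046 CPM without (1028 to 1064), and in the mutant to 2022 and 1170 CPM. Most of this list's sum is Cldn5, also used here as a general endothelial marker, and Slc2a1. Over all gated cells they stood at 594 and 176 of 983 CPM in the control and 376 and 544 of 1126 CPM in the mutant. Mfsd2a, Abcb1a and Spock2 stood at 1.75, 2.20 and 3.03 CPM in the control. Which genes of the list carry the difference was not tested. Arterial genes summed to 942 CPM with Foxq1 and 689 CPM without, and venous genes to 1134 and 1353 CPM. Control cells with Fzd6 stood out by arterial genes, at 2094 CPM (1920 to 2280) against 675 CPM, which the 25 mutant cells with Fzd6 did not share (704 CPM, 512 to 945, against 615 CPM). Fzd4 cells in the control had 1667 CPM of venous genes against 1314 CPM. All these cells come from 1 library per genotype and are not replicates.

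**Figure D5:**
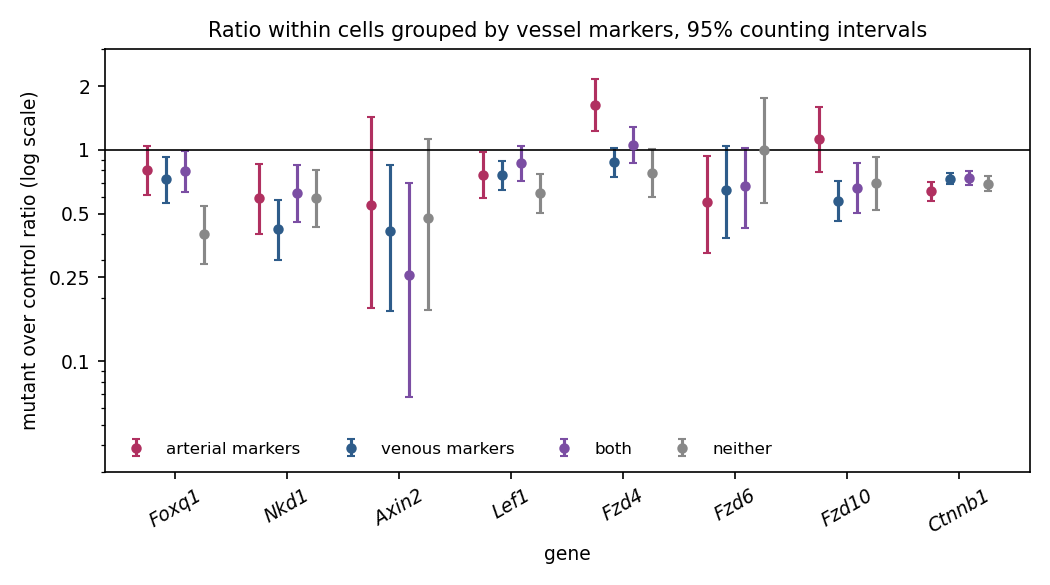
Ratio of mutant over control level of each gene (log scale) within cells that hold at least 2 UMIs of arterial markers only, of venous markers only, of both, or of neither, after thinning; bars are exact 95% counting intervals and Apcdd1 is left out for its few UMIs. The Nkd1 points lie between 0.423 and 0.629, and the Fzd4 point of cells with arterial markers only lies at 1.63.

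The mutant library held other proportions of cells with arterial and venous markers, so the ratios were also taken within cells grouped by these markers. Cells with arterial markers only were 452 in the control (8.68%) and 313 in the mutant (14.4%), and those with venous markers only 2729 (52.4%) and 787 (36.2%). These groups, called arterial and venous below, are cuts through a range and not cell types. The Gja5 clusters 7 and 11 held 575 and 345 control cells but only 6 and 4 mutant cells. The arterial group of the mutant was thus mostly of other cells, and its ratios may not set like cells side by side. Nkd1 had ratios of 0.593 in arterial, 0.423 in venous, 0.629 in mixed and 0.593 in unmarked cells, all with intervals below 1. For Axin2 the ratio was 0.413 (0.173 to 0.852) in venous and 0.256 (0.0673 to 0.697) in mixed cells. In arterial cells it was 0.547 (0.178 to 1.44, 6 mutant UMIs) and in unmarked cells 0.476 (0.174 to 1.13, 7 mutant UMIs), intervals that held 1. Foxq1 had 0.802, 0.727 and 0.793 in the marked groups and 0.400 (0.290 to 0.542) in unmarked ones. Fzd10 had 0.573 (0.459 to 0.710) in the venous group and 1.13 (0.790 to 1.60) in the arterial one. Fzd4 had 1.63 (1.22 to 2.16) in the arterial group, from 23.9 to 38.9 CPM, and 0.876 (0.748 to 1.02) in the venous one. The difference between these groups was not tested.

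The rest of the pathway was counted on lists, each read against the 20.4% and 14.8% of all genes given above. Of 24 ligand genes 6 had enough UMIs, and 0 were lower and 2 higher, Wnt4 and Rspo3. Rspo3, a secreted enhancer of Wnt receptors with a role in vessels, was at 7.84 CPM in control cells against 13.3 CPM in mutant cells (ratio 1.69, 1.45 to 1.97). Of 21 measured receptors and coreceptors other than the 3 above, 5 were lower (Vangl2, Lgr4, Vangl1, Fzd9 and Celsr1) and 6 higher (Fzd7, Fzd5, Ror1, Fzd1, Fzd2 and Ror2), with a median log2 ratio of 0.19. Vangl1, Vangl2 and Celsr1 act in planar cell polarity, and Vangl1 had 924 control and 158 mutant UMIs (ratio 0.501, 0.421 to 0.594). Fzd1 went from 2.70 to 9.59 CPM (3.55, 2.86 to 4.42). Tspan12, which assists Fzd4 in Norrin signaling, stood at 22.2 and 14.9 CPM, a ratio of 0.669 short of the call.

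Inside the cell, 1 of 14 measured genes of the cytoplasmic core was lower (Gsk3a) and 2 higher (Porcn and Tnks). Tnks, whose enzyme marks axin for breakdown, went from 8.95 to 15.9 CPM (ratio 1.78), and its relative Tnks2 had 1.44. Of 12 nuclear genes 4 were lower (Bcl9, Ctnnbip1, Bcl9l and Jup) and 0 higher, with a median of -0.33. Bcl9, a coactivator of beta-catenin, had a ratio of 0.625 and Ctnnbip1, an inhibitor of its binding to TCF proteins, 0.656. Of 11 antagonists 3 were lower (Dkk2, Shisa2 and Znrf3) and 1 higher (Dkk3), with a median of -0.52, and the 3 with at least 5 CPM, Tpbg (0.696), Sfrp2 (0.9501) and Sost (1.05), were not called.

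Of 11 other measured response genes 5 were lower (Msx1, Ccnd1, Trib2, Myc and T) and 0 higher, with a median log2 ratio of -0.23. Ccnd1, the gene of cyclin D1, went from 172 to 56.1 CPM (ratio 0.325, 0.306 to 0.346), and Myc from 24.9 to 14.1 CPM (0.567). Both answer to many other signals and to cell division, and the S-phase gene Rrm2 stood at 159 and 36.5 CPM in the gated cells. The part of the cell cycle was not tested. Hhex and Cd44 had ratios of 1.35 and 1.48, short of the call. Of 14 measured brain vessel and barrier genes 5 were lower (Mfsd2a, Vwa1, Abcb1a, Spock2 and Cldn5) and 4 higher, among them Slc2a1, Slc7a5 and Ocln. Cldn5, a tight junction gene, went from 594 to 376 CPM (0.633) and Vwa1 from 44.1 to 25.9 CPM (0.588), while Slc2a1, the glucose transporter of the barrier and also a gene of the response to low oxygen, went from 176 to 544 CPM (3.09, 3.01 to 3.18).

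By the fixed rule of likeness, the genes whose level followed these most closely over 11 control clusters, cluster 16 included, were named. For Foxq1 they were Rcan3 (Pearson r 0.989 of log2 of CPM + 1), Ecm1, Slc40a1, Mogat2 and Cdh2 (0.945), the N-cadherin gene. For Nkd1 they were Ckb (0.965), Nostrin, Sepp1, Bok and Slc39a8 (0.925), and for Fzd10 Slc29a1 (0.955), Reep1, St5, Fam102a and Pde2a (0.936). Axin2 was followed by Slc39a10 (0.972), Tiam1, Ptprk, Itga1 and Slc30a1, Lef1 by Mxra7 (0.958), Slc39a8, Clec1b, Hecw2 and Fscn1, and Apcdd1 by Dcbld1 (0.896), Arap2, Slc3a2, Cgrrf1 and Baiap2. Among the 9 genes themselves the closest pairs were Lef1 with Nkd1 (0.920) and with Fzd10 (0.911), while Fzd4 was nearly unrelated to Nkd1 (0.0442) and followed Ctnnb1 (0.837). These are descriptions over clusters of 1 library that differ in depth.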

How the data were processed

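The deposited matrix holds UMI counts, per the file headers, and was read with its gene and cell tables; build mm10 and Cell Ranger are named in the submitters' processing notes, while the sources used here do not give its version, filters on cells or use of strand. A deposited mitochondrial fraction only describes the cells (median 4.03% in control and 2.93% in mutant gated cells), and the deposited size factor, a ratio, was not used. Cells were put in groups by the deposited genotype word.

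The 9 genes and the gene lists were chosen with earlier results of these data known. Named genes were the 9, up to 4 per list (mean level 5 CPM or more) by the interval bound nearest to 1, farthest first, and the 5 most alike genes of at least 10 CPM. Vessel genes used to describe clusters, and Egfl7, Kdr, Rrm2 and Aplnr, were named after their values were seen. Counts were summed and scaled to CPM, with exact Poisson, conditional binomial and Clopper-Pearson intervals (scipy 1.17.1); log2 ratios had 0.5 UMI added. No p-value was computed. Thinning drew UMIs without replacement with a fixed seed.

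Clusters used 2000 variable genes, 30 principal components, 20 neighbours with at least 3 shared and Leiden resolution 1 (leidenalg 0.10.2, igraph 0.11.9). The 9 genes, the Wnt lists and the hemoglobin and ribosomal-protein genes were left out of the variable genes, as were genes of the mitochondrial genome. Of the sex-linked genes only Xist, Tsix, Ddx3y, Eif2s3y, Uty and Kdm5d were left out. Barrier and junction genes were kept. A cluster was endothelial-like at 1/2 of the median cluster's endothelial marker level with no other class leading its top 10 genes; shallow clusters, below 1/3 of their library's median depth and with no marker in the top 10, stayed unnamed. These names were rebuilt here. No doublet caller was run, and free RNA was not removed (hemoglobin genes 723 and 533 CPM in gated cells). Ratio and interval steps were tested on simulated data. Alternatives were other gates and cell choices, TMM (edgeR 4.0.16), median-of-ratios and reduced totals, a 2-fold bound, no count filter, other thinning depths and other clusterings. Gene positions are GENCODE vM21 on GRCm38.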

Additional observations from a re-analysis of the deposited data

How the results depend on the processing

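No paired analysis was possible because each group has 1 library. The number of the 9 genes called lower was 2 (Axin2 and Nkd1); it was 1 with a 2-fold bound (Axin2), 4 in cells thinned to 2500 UMIs (Fzd6 and Fzd10 besides) and 6 in cells with low cycle scores (Axin2, Nkd1, Foxq1, Lef1, Fzd6 and Ctnnb1). It was 3, with Fzd10, in cells with a Xist UMI and no Y-linked UMI and, an alternative chosen after seeing the data, in unthinned cells of at least 2500 UMIs. In all other choices of cells and scaling tried it was 2. The number called higher was 0 in each of these choices. The vessel-marker groups, given above, are not among them. In cells with low cycle scores the log2 ratios were -1.05 for Foxq1, -1.11 for Nkd1, -1.35 for Fzd6, -0.75 for Lef1 and -0.86 for Ctnnb1, while Fzd10 changed sign, from -0.54 to 0.34; the cause was not tested. The sign for Fzd4 and Apcdd1 also changed between alternatives, so neither has a direction. Totals without mitochondrial, ribosomal and hemoglobin genes moved the median of all genes by 0.12 on the log2 scale, and Ctnnb1 to -0.35.

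At resolution 0.5, where clusters 3 and 13 merged, the highest control cluster had 74.0 CPM of Foxq1 and 50.3 CPM of Nkd1, and at 1.5 the highest for Fzd10 had 64.1 CPM. At 1500 UMIs per cell the quotient for Nkd1 and Fzd10 went from 1.501 to 2.75 and that for Foxq1 and Lef1 from 2.31 to 1.53. Depth limits Apcdd1 most, with 37 and 12 UMIs, then Axin2, with 28 in the mutant.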

Other observations

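Cells with Foxq1 held less RNA of the Hox genes, which mark position along the trunk. In control cells thinned to 2500 UMIs the 39 Hox genes summed to 127 CPM with Foxq1 (102 to 157) and 246 CPM without (237 to 255). For Nkd1 the sums were 144 CPM with it (114 to 179) and 244 CPM without, while for Fzd10 (218 and 241 CPM) and Lef1 (223 and 241 CPM) the intervals overlapped or touched. In the mutant the sums were 233 CPM with Foxq1 (174 to 305) and 286 CPM without (272 to 301), which overlapped. Among control clusters, cluster 13 had 116 CPM of Hox genes, cluster 3 had 186 and cluster 2 had 290. Other clusters did not follow Foxq1 in this way. Cluster 8 had 146 CPM of Hox genes with 6.26 CPM of Foxq1, and cluster 11 had 328 with 24.97. Cluster 5 had 240 CPM with 41.1 CPM of Foxq1, and cluster 4 had 232 with 0.928. The Hox list was added after the data were seen.

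Genes of S phase and G2/M summed to 3682 CPM in control cells with Foxq1 (3539 to 3829) and 4473 CPM in those without (4435 to 4510), and to 2360 and 3627 CPM in the mutant. Cells with Fzd10 went the other way in the control, at 4816 CPM (4671 to 4964) against 4404 CPM, and overlapped in the mutant, at 3461 and 3579 CPM. Clusters 13 and 5, both high in Wnt response genes, stood far apart in these genes, at 2456 and 4956 CPM.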
